A study of Homo sapiens with 54 samples.

Results

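CAMKK2, CAMKK1, CAMK2D, CAMK2G, CAMK2B and CAMK2N1, 5 kinase genes of calcium/calmodulin signalling and 1 kinase inhibitor, were followed through androgen withdrawal and relapse in LNCaP xenograft tumours. They are 6 of the 60642 human gene symbols in the expression table. They were taken by name. CAMKK2 was included because it is a known androgen target. CAMK2D was chosen by its measured difference between the 2 relapse steps of the study. The CAMK2D levels and differences between groups are therefore given as a description with no test. For CAMK2D, p-values are printed only for its relations to other genes within a group. All 6 genes were among the 17131 genes that reached 1 TPM (transcripts per 1000000) in at least 8 tumours and were tested.

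Calcium entering the cytosol binds calmodulin, and calcium-loaded calmodulin activates a family of protein kinases. CAMKK2 and CAMKK1 are the upstream kinases, which phosphorylate CaMKI and CaMKIV and, in the case of CAMKK2, also AMPK, the energy sensor. CAMK2D, CAMK2G, CAMK2B and the brain-enriched CAMK2A encode the subunits that assemble into CaMKII, a kinase that stays active after the calcium signal has passed. CAMK2N1 encodes a small protein that inhibits CaMKII. In prostate cancer CAMKK2 is a well-described gene induced by androgen.

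The study implanted LNCaP, a human prostate cancer line that depends on androgen, subcutaneously in male NOD-SCID mice, a strain without functional B and T cells, and sequenced RNA from 54 tumours, 1 per mouse. Surgery was done at a tumour volume of about 200 mm3. PRE-CX tumours (n = 9) came from mice given mock surgery and were grown to 1000 mm3. POST-CX tumours (n = 8) were taken a week after castration, at the primary fall of serum prostate-specific antigen, and CRPC tumours (n = 10) had relapsed after castration. Enzalutamide, an antiandrogen drug, was given to castrated mice by oral gavage at 10 mg/kg on 5 days per week, and tumours were taken while they responded (ENZS, n = 12) or after they had relapsed on the drug (ENZR, n = 15). CRPC and ENZR tumours were collected once serum prostate-specific antigen had returned to its level before castration or before the drug, or at a volume of 1000 mm3. All tumours derive from a single cell line, and 45 of the 54 came from castrated hosts. Mouse numbers name the tumours and are not shared between groups. The p-values measure the spread between tumours of separate mice.

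The values are TPM from a combined human and mouse reference of which the human symbols were deposited, so the human total of a tumour falls below 1000000 where mouse RNA is present. It lay between 59.7% and 97.5% of 1000000 in 52 tumours, with a median of 89.9% over all 54. In POST-CX mouse 91 it was 27.9% and in ENZR mouse 87 it was 12.1%. In each of these 2 tumours 5 of the 6 genes had the lowest value of their group on the deposited scale. Differences are therefore given for all 54 tumours and, beside them, without these 2 tumours or after rescaling the human symbols of every tumour to 1000000 (rescaled TPM). The prostate luminal markers KLK3, KLK2, FOLH1, HOXB13, KRT8, KRT18, EPCAM and FOXA1 each averaged at least 1 TPM in every group. The summed level of 14 stroma and blood markers, of which 7 passed the expression filter, ranged from 8.89 to 20.1 TPM in PRE-CX, 9.77 to 31.5 in POST-CX, 16.7 to 93.9 in CRPC, 22.04 to 241 in ENZS and 12.0 to 79.7 in ENZR, with PECAM1, CDH5 and PTPRC at a median of 0 and COL1A1, COL3A1 and LUM at medians of 6.335, 5.76 and 2.305 TPM (up to 26.06, 58.9 and 109.96). Of 12 neuron and muscle markers, 3 passed the filter, and these were the neuron markers MAP2, NRGN and SYP. Their medians were 2.62, 1.41 and 1.405 TPM (up to 19.14, 15.91 and 2.8). The muscle marker CKM was at 0 in every tumour. The summed level of 16 cell division genes had a median of 738 TPM in PRE-CX, 529 in POST-CX, 452 in CRPC, 90.5 in ENZS and 173 in ENZR. All these markers are human symbols, whereas the host tissue is mouse, and the source of their reads was not tested. The part of these markers in the results below was not tested.

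CAMKK2 lies on chromosome 12, minus strand, at chr12:121237692-121297819 (RefSeq, GRCh38.p14). The 250 bases before one of its annotated starts, chr12:121296710-121296959, are shown because CAMKK2 is the androgen target among these genes and this is the stretch nearest to that start. Capitals mark GC boxes (GGGCGG, searched on both strands), and the sequence reads 5′ to 3′ along the gene's strand.

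CAMKK2: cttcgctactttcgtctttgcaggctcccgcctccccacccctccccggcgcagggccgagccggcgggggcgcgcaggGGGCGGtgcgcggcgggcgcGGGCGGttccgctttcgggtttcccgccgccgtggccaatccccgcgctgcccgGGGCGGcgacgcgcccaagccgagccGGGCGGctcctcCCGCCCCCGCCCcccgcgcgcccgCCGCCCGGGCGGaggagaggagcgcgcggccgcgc

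The window holds 8 GC boxes, 5 on the gene's strand and 3 on the other, and no box overlaps another. It is 82.8% G or C, against a median of 58% over the 35116 windows of the same length in the RefSeq promoter table. The androgen response half-site AGAACA was not found in it on either strand, nor was the full palindrome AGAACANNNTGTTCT. Of all windows, 42.6% held a GC box, 12.4% a half-site and 0.003% (1 window) the full palindrome. For 5 of the 6 genes the table holds a window. None of those windows held a half-site. GC boxes numbered 9 in the CAMK2G window (chr10:73874556-73874805), 3 in that of CAMK2B (chr7:44325595-44325844), 4 and 0 in those of the 2 CAMKK1 starts (chr17:3893054-3893303 and chr17:3890744-3890993) and 0 in that of CAMK2D (chr4:113761739-113761988). These are matches of letters in short windows, and no binding was measured here.

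CAMKK2 RNA was highest in the tumours of uncastrated mice and lower in every castrated group. In PRE-CX the 9 tumours had 77.2, 78.6, 85.2, 87.6, 87.7, 90.7, 104, 136 and 174 TPM. The POST-CX tumours ranged from 14.2 to 69.9 TPM with a median of 61.9, and the CRPC tumours from 38.7 to 85.1 with a median of 65.4. Every POST-CX tumour therefore lay below the lowest PRE-CX tumour, whereas 6 of 10 CRPC tumours did. In these comparisons 4.33% (POST-CX) and 7.43% (CRPC) of all genes tested differed from PRE-CX at an adjusted p under 0.05. The ENZS tumours ranged from 33.0 to 76.7 TPM with a median of 46.3, and the ENZR tumours from 3.44 to 73.7 with a median of 45.2. All 12 ENZS and all 15 ENZR tumours lay below the PRE-CX range, and all 45 castrated tumours lay below the PRE-CX median. Of all genes, 38.5% passed in the ENZS comparison, 29.1% in the ENZR comparison and 30.6% in that of all castrated tumours. On rescaled TPM the numbers below the PRE-CX range were 8 of 8, 5 of 10, 11 of 12 and 15 of 15. The percentages of all genes given here are limma calls, a different measure from such counts. How many of all genes have tumours set apart from PRE-CX in this way was not computed, here or for the genes below.

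**Figure D1:**
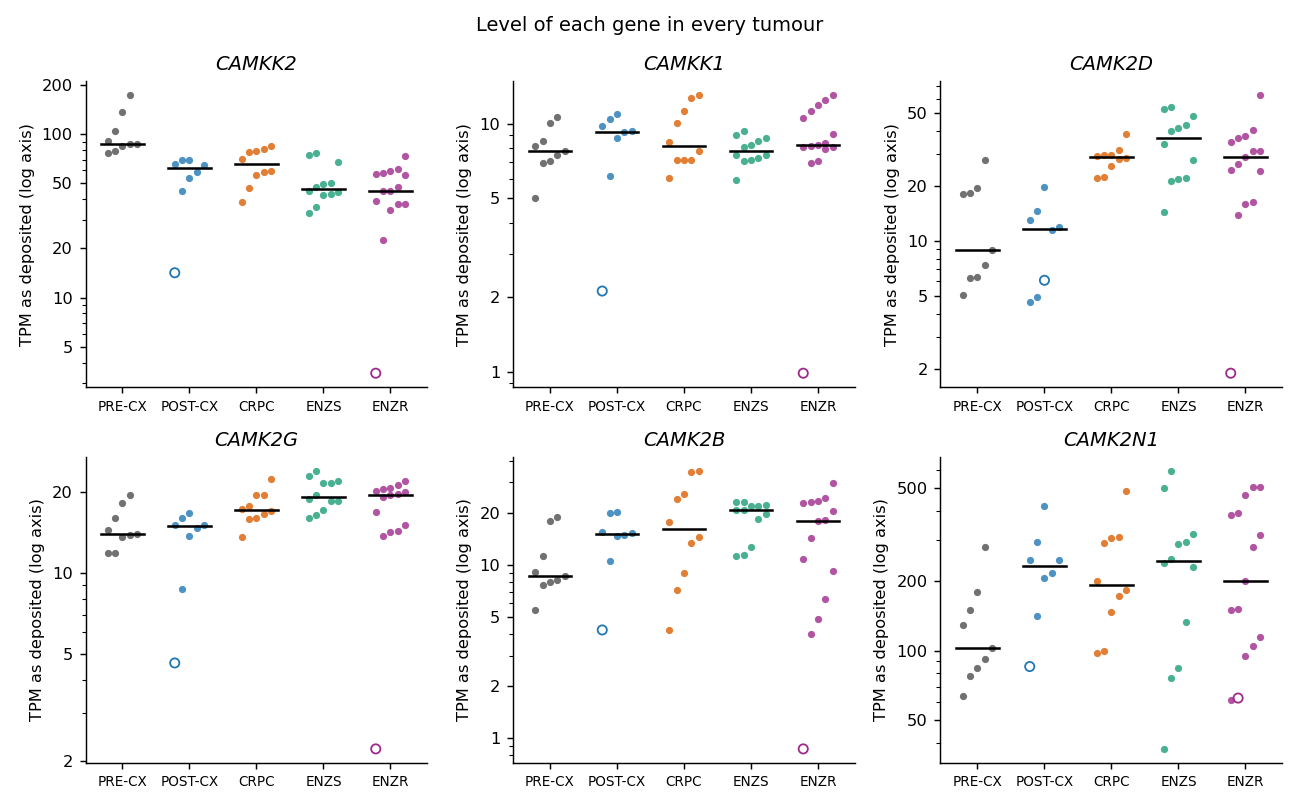
Level of the 6 genes in each tumour, in TPM as deposited on a log axis, with 1 point per tumour and a line at the group median (PRE-CX n = 9, POST-CX n = 8, CRPC n = 10, ENZS n = 12, ENZR n = 15). Open circles are the 2 tumours of low human total. The CAMKK2 median is 87.7 in PRE-CX and 45.2 in ENZR, and the CAMK2D median is 8.93 in PRE-CX and 36.8 in ENZS.

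In mean ± SD, CAMKK2 stood at 102 ± 32.3 TPM in PRE-CX, 55.3 ± 18.7 in POST-CX, 65.5 ± 15.7 in CRPC, 50.8 ± 14.4 in ENZS and 45.2 ± 17.4 in ENZR. Over all castrated tumours the log2(TPM + 1) difference from PRE-CX was -1.01 (SE 0.23, adjusted p = 0.000627). It was -0.89 (SE 0.14, adjusted p = 4.9e-07) without the 2 tumours of low human total. In bulk tissue, fewer cells of a type and less RNA per cell cannot be told apart. The fall was past the threshold of adjusted p 0.05 under enzalutamide, with a difference of -0.99 (SE 0.28, adjusted p = 0.00378) in ENZS and -1.30 (SE 0.27, adjusted p = 0.000152) in ENZR. Without the 2 tumours of low human total the ENZR difference was -1.08 (SE 0.16, adjusted p = 2.4e-07), and that in ENZS stayed at -0.99. The 4 comparisons share the 9 PRE-CX tumours.

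Without enzalutamide the same direction was measured but did not pass with all 54 tumours in the fit. The CAMKK2 difference from PRE-CX was -0.95 (SE 0.31, adjusted p = 0.0658) in POST-CX and -0.62 (SE 0.29, adjusted p = 0.215) in CRPC. Without the 2 tumours of low human total both passed, at -0.70 (SE 0.19, adjusted p = 0.00811) and -0.62 (SE 0.17, adjusted p = 0.00642). Of all genes 14.9% (POST-CX) and 20.2% (CRPC) passed in that setting. Leaving out ENZR mouse 87 alone, which belongs to neither comparison but enters the shared estimate of spread, gave adjusted p = 0.00252 for POST-CX and 0.0326 for CRPC. Leaving out POST-CX mouse 91 alone gave 0.182 and 0.153. The exact permutation test over the tumours of the 2 groups, which uses no other group, gave unadjusted p = 4.11e-05 for POST-CX against PRE-CX.

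Among the castrated groups CAMKK2 levels lay close together. Ordered from PRE-CX through CRPC, POST-CX and ENZS down to ENZR, no neighbours differed past the threshold with all tumours in the fit. Without the low tumours PRE-CX and CRPC did (adjusted p = 0.00642), and the other neighbours had adjusted p of 0.213 to 0.93. The difference at relapse under enzalutamide, ENZR minus ENZS, was -0.31 (SE 0.25) with all tumours and -0.08 (SE 0.15) without the low ones. The relapse after castration, CRPC minus POST-CX, gave 0.33 (SE 0.30) and 0.07 (SE 0.18). ENZR lay below CRPC by a difference of -0.68 (SE 0.26, adjusted p = 0.151), or -0.45 (SE 0.15, adjusted p = 0.0416) without the low tumours. Background shares were 3.1% in ENZR minus CRPC (13% without the low tumours) and 0.0175% (3 genes) in ENZR minus ENZS. In CRPC minus POST-CX limma called 0% of genes, with 1154 genes at an unadjusted p under 0.05 and between 0 and 1720 genes past the threshold under the alternatives tried.

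CAMKK1, the second upstream kinase (chr17:3860315-3893053), was present at a lower and nearly level amount. Its mean ± SD was 7.96 ± 1.68 TPM in PRE-CX, 8.34 ± 2.89 in POST-CX, 9.08 ± 2.51 in CRPC, 7.86 ± 0.96 in ENZS and 8.81 ± 2.93 in ENZR. The ranges of all groups overlapped, and the castrated tumours differed from PRE-CX by 0.05 (SE 0.18, adjusted p = 0.861), a value that turned to -0.05 when each tumour was centred on its median gene. The ratio of CAMKK2 to CAMKK1 TPM does not depend on the human total of a tumour. It ranged from 11.1 to 16.3 in PRE-CX, 4.93 to 7.59 in POST-CX, 4.58 to 10.97 in CRPC, 4.53 to 10.5 in ENZS and 2.698 to 7.58 in ENZR. No castrated tumour reached the lowest PRE-CX ratio, but the highest CRPC ratio (10.97) lay close to it (11.1). How often ratios of other genes are set apart in this way was not computed.

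**Figure D2:**
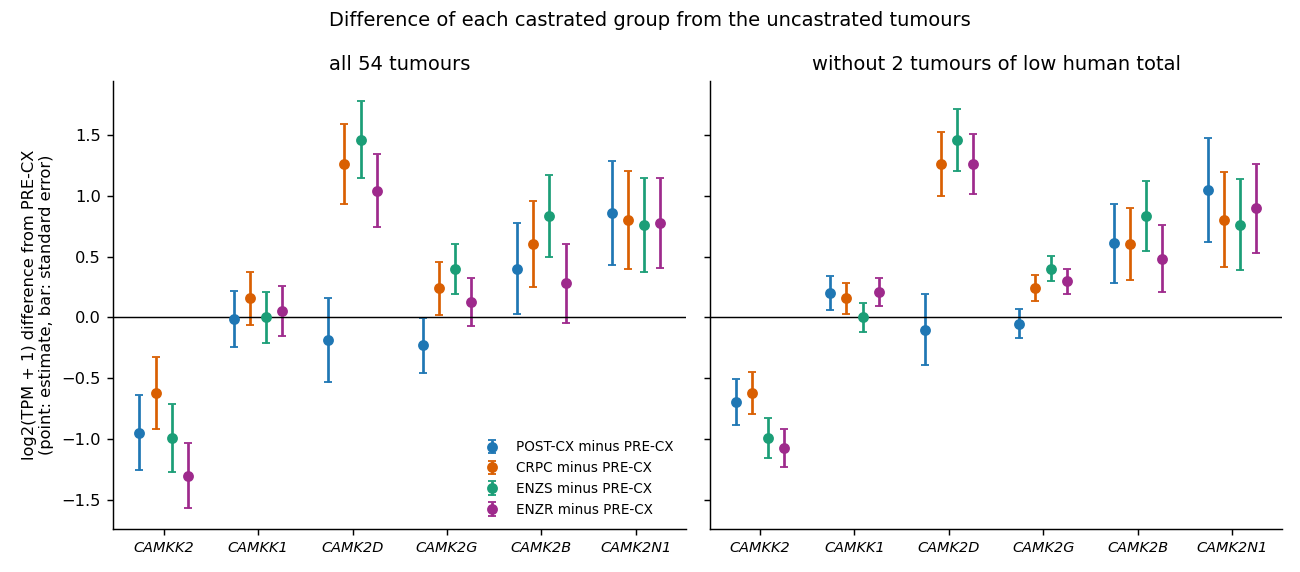
Difference of each castrated group from PRE-CX in log2(TPM + 1), as the limma estimate with its standard error, for all 54 tumours (left) and without the 2 tumours of low human total (right). CAMKK2 lies below 0 in all 4 groups, and CAMK2D lies above 1 in CRPC, ENZS and ENZR and near 0 in POST-CX.

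CAMK2D, which encodes the delta subunit of CaMKII (chr4:113451032-113761738), was on average lower in PRE-CX and POST-CX than in the 3 other groups. PRE-CX was uneven, and its highest tumour lay within the range of each of those 3 groups. The 9 PRE-CX tumours had 5.05, 6.27, 6.38, 7.39, 8.93, 18.0, 18.3, 19.6 and 27.6 TPM, and the 8 POST-CX tumours 4.62, 4.94, 6.09, 11.5, 11.9, 13.0, 14.6 and 19.6 TPM. The CRPC tumours had 22.1 to 38.4 TPM (median 28.8), so all 10 lay above every POST-CX tumour and 7 of them above every PRE-CX tumour. The share of all genes with groups set apart in this way was not computed. By limma 0% of genes passed in CRPC minus POST-CX, with 1154 at an unadjusted p under 0.05, and 7.43% in CRPC minus PRE-CX. The step from POST-CX to CRPC is part of what chose CAMK2D. The ENZS tumours ranged from 14.5 to 54.0 TPM (median 36.8) and the ENZR tumours from 1.89 to 62.8 (median 28.7). Within ENZR the lowest value belongs to mouse 87, whose rescaled value was 15.6. Among the other ENZR tumours the lowest was 13.9 TPM.

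The values that chose CAMK2D are these. From POST-CX to CRPC it differed by 1.45 on the log2(TPM + 1) scale (SE 0.34), and from ENZS to ENZR by -0.42 (SE 0.28), so the second step minus the first was -1.86 (SE 0.44). Without the low tumours the 2 steps were 1.36 and -0.20 and their difference -1.56 (SE 0.36). For the other genes the same difference between steps was -0.64 (CAMKK2), -0.12 (CAMKK1), -0.75 (CAMK2G), -0.76 (CAMK2B) and 0.07 (CAMK2N1). Without the low tumours these values were -0.16, 0.25, -0.40, -0.35 and 0.38.

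Against PRE-CX the CAMK2D values, given with no test because the same tumours chose the gene, were -0.19 in POST-CX (0.063 on rescaled TPM), 1.26 in CRPC, 1.46 in ENZS and 1.04 in ENZR. Over all castrated tumours the difference was 0.98 (SE 0.26), or 1.096 (SE 0.21) without the low tumours. Of the 45 castrated tumours 41 lay above the PRE-CX median.

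CAMK2G, the gamma subunit (chr10:73812501-73874555), varied least among the CaMKII genes. Its mean ± SD was 14.8 ± 2.65 TPM in PRE-CX, 13.1 ± 4.21 in POST-CX, 17.6 ± 2.42 in CRPC, 19.8 ± 2.63 in ENZS and 17.3 ± 5.04 in ENZR. All 12 ENZS tumours (16.02 to 24.06 TPM) lay above the PRE-CX median of 13.98, and 6 of them above the PRE-CX range. With all tumours CAMK2G rose in ENZS against POST-CX, by 0.63 (SE 0.21, adjusted p = 0.0298; background 19.7%). Leaving out POST-CX mouse 91 alone ended this call (0.45, adjusted p = 0.141), and without both low tumours it passed at 0.45 (adjusted p = 0.00166; background 28.4%). Against PRE-CX the difference in ENZS was 0.40 (SE 0.21, adjusted p = 0.12). Without the low tumours it stayed at 0.40 (SE 0.10, adjusted p = 0.000852), and the ENZR difference of 0.29 also passed (adjusted p = 0.0113). In that setting 57.9% (ENZS) and 53.3% (ENZR) of all genes passed, with median differences of 0.26 and 0.21. When each tumour was centred on its median gene the ENZS value against PRE-CX was 0.15.

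CAMK2B, the beta subunit (chr7:44217154-44326013), is best known from neurons and was present in these luminal tumour cells at 10.6 ± 4.69 TPM in PRE-CX. It averaged 14.4 ± 5.16 in POST-CX, 18.5 ± 10.9 in CRPC, 18.9 ± 4.49 in ENZS and 15.4 ± 8.83 in ENZR. It rose in ENZS, by 0.83 (SE 0.34, adjusted p = 0.0454; background 38.5%, median of all genes 0.26), with all 12 tumours above the PRE-CX median. This call was lost with a pseudocount of 0.1 (adjusted p = 0.0628) and without a filter on low values (adjusted p = 0.0849). Neuron and muscle markers summed to a median of 5.48 to 8.35 TPM across the groups. The relapsed groups were the most uneven for this gene, with 4.20 to 35.0 TPM among CRPC and 0.87 to 29.6 among ENZR tumours, and their differences from PRE-CX, 0.60 (SE 0.35) and 0.28 (SE 0.32), did not pass. Over all castrated tumours CAMK2B differed from PRE-CX by 0.52 (SE 0.28, adjusted p = 0.158) and CAMK2G by 0.16 (SE 0.17, adjusted p = 0.519). Without the low tumours both passed, at 0.63 (SE 0.24, adjusted p = 0.0227) and 0.25 (SE 0.09, adjusted p = 0.0108). In that setting 53.1% of all genes passed, and the median difference of all genes was 0.18. After centring, CAMK2B stood at 0.42 (adjusted p = 0.09) and CAMK2G at 0.06 (adjusted p = 0.425). Leaving out ENZR mouse 87 alone brought CAMK2B to adjusted p = 0.0452. CAMK2A, the alpha subunit, was above 0 in 9 of 54 tumours and never above 0.03 TPM.

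Shares of the summed CaMKII TPM do not depend on the human total of a tumour. CAMK2D made up 31.9% ± 12.3 of the sum in PRE-CX, 28.4% ± 9.73 in POST-CX, 45.2% ± 10.3 in CRPC, 46.0% ± 12.0 in ENZS and 45.4% ± 12.3 in ENZR. It was the most abundant subunit in 4 of 9, 2 of 8, 7 of 10, 9 of 12 and 11 of 15 tumours. CAMK2G was the most abundant in 5 of 9 PRE-CX, 3 of 8 POST-CX, 0 of 10 CRPC and 2 of 15 ENZR tumours, and in ENZS it was the highest in none alone and level with CAMK2B in 1. Its mean share was 41.1% ± 11.5 in PRE-CX, 34.2% ± 3.37 in POST-CX, 27.6% ± 4.21 in CRPC, 27.2% ± 3.62 in ENZS and 30.02% ± 6.28 in ENZR. CAMK2B held 37.4% ± 7.59 in POST-CX and between 24.6% and 27.1% on average elsewhere. The summed CaMKII level was 38.5 ± 12.6 TPM in PRE-CX, 38.3 ± 12.2 in POST-CX, 64.5 ± 10.7 in CRPC, 73.7 ± 12.2 in ENZS and 61.1 ± 21.1 in ENZR. Since CAMK2D was chosen from these tumours, its shares are a description.

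**Figure D3:**
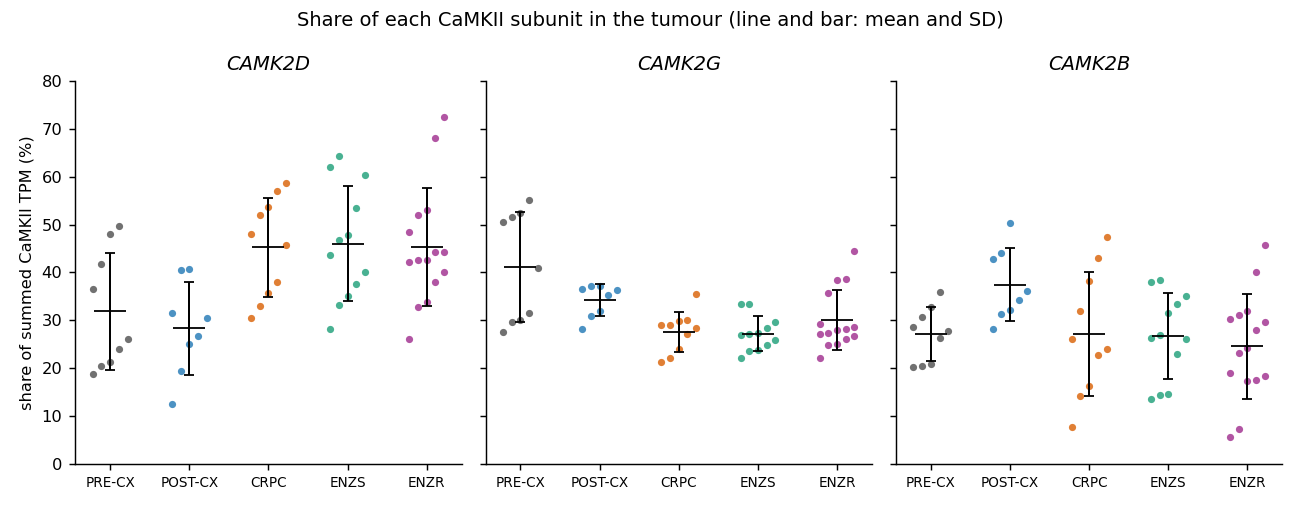
Share of the summed CaMKII TPM held by CAMK2D, CAMK2G and CAMK2B in each tumour, in percent, with the group mean and SD. The CAMK2D share averages 28.4% to 31.9% in PRE-CX and POST-CX and 45.2% to 46.0% in the 3 other groups, with overlap between tumours.

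CAMK2N1, the CaMKII inhibitor (chr1:20482391-20486210), was the most abundant transcript of the 6 in each group, and its mean TPM exceeded that of 97.3% of the genes tested. It averaged 128 ± 67.3 TPM in PRE-CX, 232 ± 101 in POST-CX, 229 ± 119 in CRPC, 253 ± 167 in ENZS and 252 ± 164 in ENZR. The medians were 103, 230, 191, 243 and 200 TPM. Spread was wide, from 37.7 to 595 TPM within ENZS alone, and every castrated group overlapped the PRE-CX range of 63.6 to 279. The castrated tumours differed from PRE-CX by 0.79 (SE 0.32, adjusted p = 0.0526). The difference passed without the low tumours (0.86, SE 0.31, adjusted p = 0.0181; background 53.1%). It also passed without either of them alone (adjusted p = 0.0384 without POST-CX mouse 91 and 0.0273 without ENZR mouse 87). By group the CAMK2N1 difference was 0.76 (SE 0.39, adjusted p = 0.114) in ENZS and 0.78 (SE 0.37, adjusted p = 0.108) in ENZR. The ENZR difference passed without the low tumours (adjusted p = 0.0349; background 53.3%). In POST-CX the difference was 0.86 (SE 0.43, adjusted p = 0.284), which passed on rescaled TPM (adjusted p = 0.0323; background 26.8%), and in CRPC 0.80 (SE 0.40, adjusted p = 0.258). Of the castrated tumours, 36 of 45 lay above the PRE-CX median. The ratio of CAMK2N1 to summed CaMKII TPM averaged 3.30 ± 1.08 in PRE-CX, 6.13 ± 1.86 in POST-CX, 3.68 ± 2.25 in CRPC, 3.76 ± 2.90 in ENZS and 4.90 ± 3.49 in ENZR. CAMK2N2, the paralogous inhibitor, averaged 2.26 TPM in PRE-CX and never exceeded 7.02.

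In the remaining comparisons among castrated groups, 0 of the 5 genes tested pairwise passed in ENZR minus POST-CX (background 3.4%) or ENZS minus CRPC (background 8.93%) by limma with all tumours in the fit. The smallest unadjusted p was 0.09 for CAMK2G in the first and 0.182 for CAMKK2 in the second. In ENZR minus POST-CX, CAMK2G (0.35 with all tumours) passed without the low tumours (adjusted p = 0.0235; background 14.6%), on rescaled TPM (0.0149; background 15.1%) and after centring (0.01099). CAMKK2 passed there after centring (-0.45, adjusted p = 0.0408). In ENZS minus CRPC, CAMK2G passed on rescaled TPM (adjusted p = 0.03897; background 38.2%), and CAMKK2 (-0.50, adjusted p = 0.0115) and CAMKK1 (-0.29, adjusted p = 0.0355) passed after centring. In POST-CX and CRPC against PRE-CX the count was also 0 of 5, with CAMKK2 (p = 0.00328) and CAMK2N1 (p = 0.0484) under an unadjusted 0.05 in POST-CX and CAMKK2 (p = 0.0374) in CRPC. In CRPC minus POST-CX it was 0 of 5 with CAMK2G at an unadjusted p = 0.0397, and in ENZR minus ENZS 0 of 5 with 0 under an unadjusted 0.05.

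Whether the kinases followed androgen-induced genes within a group was examined against the mean log2(rescaled TPM + 1) of 20 androgen-induced genes, such as KLK3, FKBP5 and TMPRSS2, and of 16 cell division genes. The 6 genes, 5 groups and 2 means gave 60 relations. By Pearson's r 0 of them passed an adjusted p of 0.05, and 9 had an unadjusted p under 0.05. For CAMKK2 and the androgen-induced mean r was positive in all 5 groups. In POST-CX (n = 8) r was 0.89 and Spearman's rho 0.95 (exact permutation p = 0.00382 and 0.00114, adjusted p = 0.0764 and 0.0685), and r was 0.97 without the 2 tumours farthest from the median of the mean. In CRPC (n = 10) r was 0.74 and rho 0.76 (permutation p = 0.0163 and 0.0145, adjusted p = 0.156 and 0.289), and r was 0.56 without 2 tumours.

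In PRE-CX (n = 9) CAMKK2 gave r = 0.76 and rho = 0.63 (exact permutation p = 0.0227 and 0.076, adjusted p = 0.171 and 0.507). That relation rests on the 2 tumours farthest from the median, since r was 0.07 without them. In ENZS (n = 12) r was 0.56 and rho 0.41 (permutation p = 0.0622 and 0.184, adjusted p = 0.311 and 0.622), with r = 0.30 without 2 tumours. In ENZR (n = 15) r was 0.55 and rho 0.41 (permutation p = 0.0346 and 0.127, adjusted p = 0.231 and 0.596), with r = 0.50 without 2 tumours and 0.36 without mouse 87. Without POST-CX mouse 91 the POST-CX relation gave r = 0.98 (n = 7, exact permutation test, adjusted p = 0.0476).

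For CAMK2D and the androgen-induced mean r was positive in every castrated group. Both relapsed groups on average lay below PRE-CX for that mean and above it for CAMK2D. In CRPC r was 0.84 and rho 0.79 (n = 10, permutation p = 0.00257 and 0.00882, adjusted p = 0.0764 and 0.265), with r = 0.81 without 2 tumours. In ENZR r was 0.70 and rho 0.55 (n = 15, permutation p = 0.00356 and 0.0361, adjusted p = 0.0764 and 0.309), with r = 0.60 without 2 tumours. In ENZS r was 0.48 (n = 12, permutation p = 0.116, adjusted p = 0.466), with r = 0.29 without 2 tumours. In POST-CX r was 0.41 (n = 8, exact permutation p = 0.31, adjusted p = 0.649), with r = 0.26 without 2 tumours and 0.73 without mouse 91. In PRE-CX the sign was the opposite, with r = -0.37 and rho = -0.25 (n = 9, exact permutation p = 0.34 and 0.521, adjusted p = 0.649 and 0.759).

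**Figure D4:**
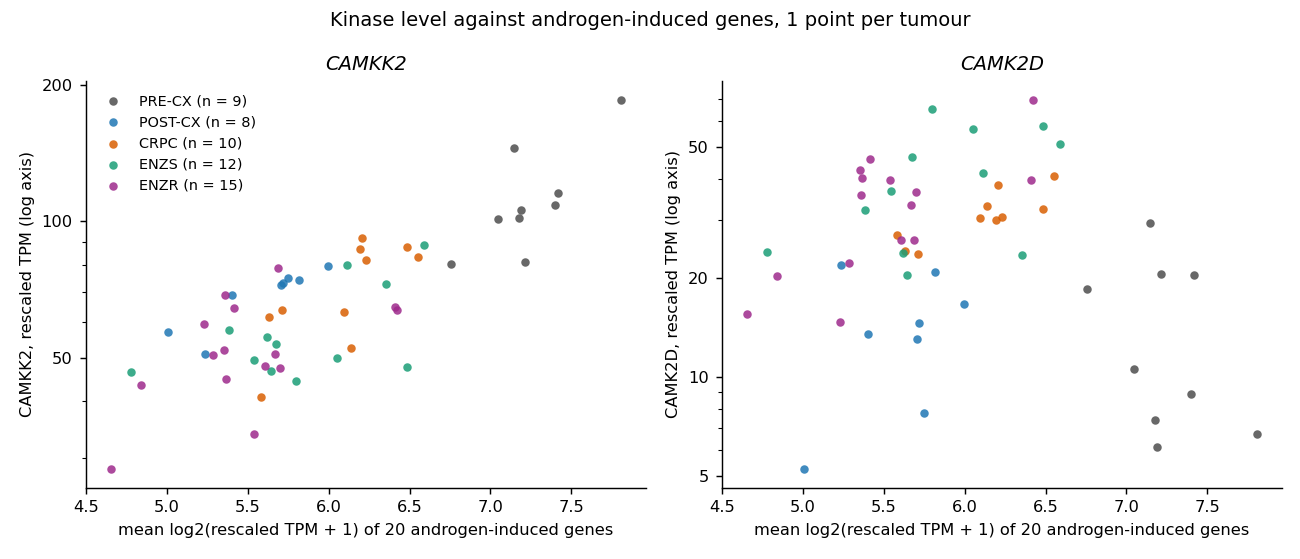
CAMKK2 (left) and CAMK2D (right) in rescaled TPM on a log axis against the mean log2(rescaled TPM + 1) of 20 androgen-induced genes, with 1 point per tumour coloured by group. CAMKK2 is highest in the PRE-CX tumours at the right, whereas CAMK2D in PRE-CX lies below most CRPC, ENZS and ENZR tumours.

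Over all 54 tumours and 11155 genes averaging at least 5 TPM, the patterns most like CAMKK2 on rescaled values were those of DUS1L (Pearson r = 0.83), FKBP5 (0.81), UBE2G1 (0.79), ACAT2 (0.79) and HNRNPF (0.79). After removing the group means these correlations were 0.65, 0.53, 0.66, 0.61 and 0.60. FKBP5, a co-chaperone of steroid receptors, is an established androgen-induced gene and was 1 of the 20 above. The patterns most like CAMK2D were NCALD, a neuronal calcium sensor (0.77), TMEM168 (0.75), SPIRE1 (0.74), NLGN1 (0.73) and the pseudogene TTC3P1 (0.73), whose reads could be shared with its parent gene. Tumours share their group, scaling and library with all genes, so these are descriptions. CAMKK2 and CAMK2D themselves had r = -0.38 over all tumours and 0.11 after removing the group means.

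The wider pathway was covered by 64 genes on 4 lists, of which 57 were tested. Against PRE-CX, 1 rose and 1 fell in POST-CX, 5 rose and 1 fell in CRPC, 23 rose and 2 fell in ENZS, and 14 rose and 3 fell in ENZR. Without the 2 low tumours these counts were 9 and 1, 14 and 2, 31 and 3, and 31 and 6. The share of all genes tested that passed was 4.33%, 7.43%, 38.5% and 29.1% in these comparisons, and 14.9%, 20.2%, 57.9% and 53.3% without the low tumours. With all tumours the share of pathway genes lay near that of all genes, so the counts say nothing particular about the pathway. The list medians of 0.03, 0.18, 0.41 and 0.18 on the log2 scale stood beside -0.05, 0.11, 0.26 and 0.07 over all genes tested. Rescaling the human totals moved the median of all genes to 0.16 in POST-CX and 0.25 in ENZR. After centring each tumour on its median gene the ENZS split became 24 higher and 10 lower, and the ENZR split 20 higher and 11 lower.

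**Figure D5:**
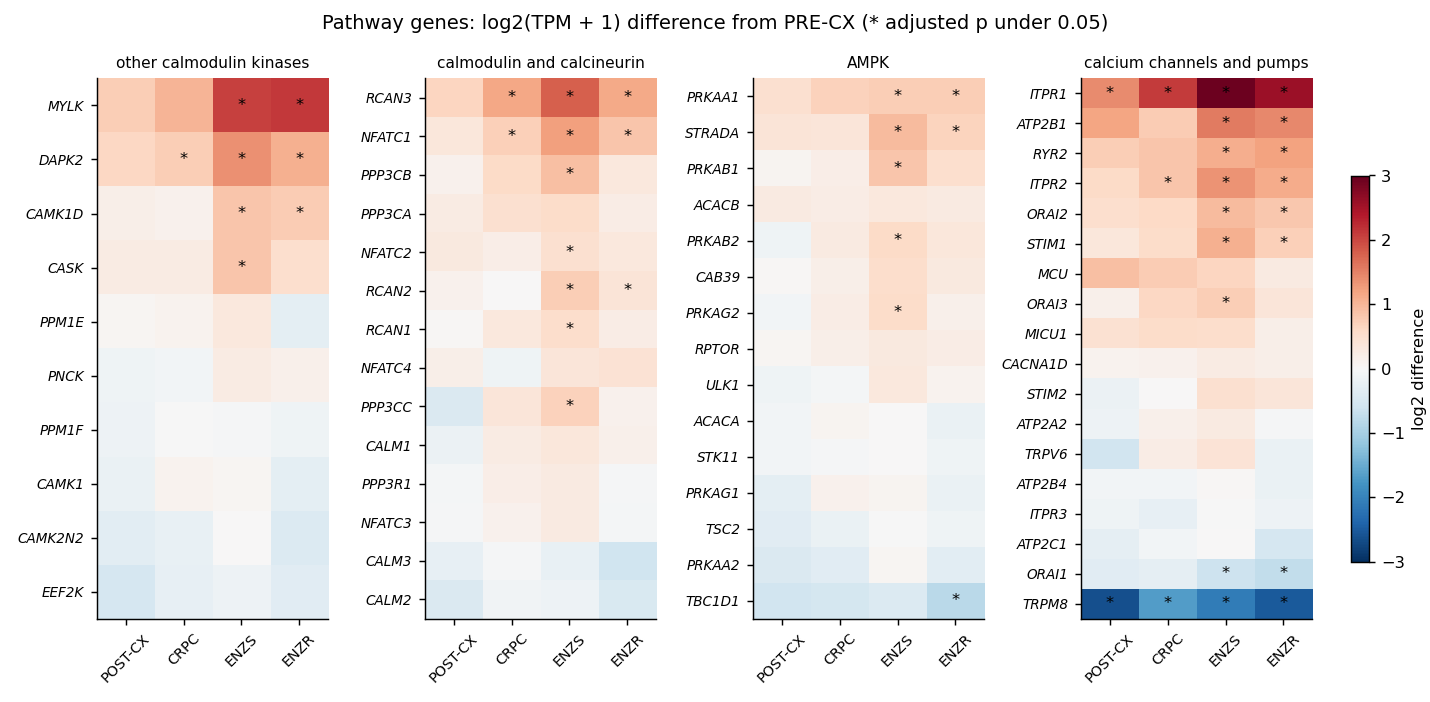
Differences from PRE-CX in log2(TPM + 1) for the 57 pathway genes tested, 1 panel per list, 1 column per castrated group, with an asterisk at adjusted p under 0.05. ITPR1 and TRPM8 pass in all 4 columns, in opposite directions, and most asterisks are in ENZS.

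Calcium channels and pumps held both extremes. ITPR1, the type 1 IP3 receptor that releases calcium from the endoplasmic reticulum, rose in every castrated group. It ranged from 3.98 to 14.7 TPM in PRE-CX, 11.5 to 36.0 in POST-CX, 21.4 to 55.5 in CRPC, 33.2 to 113 in ENZS and 6.45 to 129 in ENZR. All CRPC and ENZS tumours lay above the PRE-CX range. Its differences from PRE-CX were 1.42, 2.10, 2.94 and 2.57, with adjusted p of 0.00756, 7.35e-06, 1.18e-10 and 1.82e-09. TRPM8, a calcium-permeable channel known as an androgen-dependent prostate gene, fell in every castrated group. It averaged 21.8 ± 19.1 TPM in PRE-CX, 2.29 ± 2.40 in POST-CX, 5.31 ± 3.898 in CRPC, 3.97 ± 3.32 in ENZS and 2.83 ± 3.23 in ENZR, with differences of -2.63, -1.67, -2.09 and -2.52 (adjusted p = 6.29e-06, 0.00286, 8.31e-06 and 1.83e-07). In ENZS, 7 of the 18 channel and pump genes rose, among them the plasma membrane calcium pump ATP2B1 (1.56) and the ryanodine receptor RYR2 (1.09), and the store-operated channel subunit ORAI1 fell by 0.61. In ENZR 6 rose and 2 fell, with ATP2B1 at 1.45, RYR2 at 1.20 and ORAI1 at -0.75. The backgrounds of 38.5% in ENZS and 29.1% in ENZR also apply to these 18 genes and to the 3 lists that follow, and nothing is read from a list's count beyond them.

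Among the 14 other calmodulin kinases and regulators, of which 10 were tested, 4 rose and 0 fell in ENZS and 3 rose and 0 fell in ENZR by limma, with 0 and 1 lower at an unadjusted p under 0.05. MYLK, the myosin light chain kinase, had the largest rise, from 1.71 ± 0.75 TPM in PRE-CX to 12.3 ± 11.2 in ENZS (2.04, adjusted p = 6.43e-05) and 20.4 ± 38.9 in ENZR (2.12, adjusted p = 2.89e-05), where 1 tumour reached 159 TPM and 14 of 15 lay above the PRE-CX median. MYLK is also a smooth muscle gene, and the stroma and blood markers summed to a median of 46.9 TPM in ENZS and 54.4 in ENZR against 15.2 in PRE-CX. Their part in this rise was not tested. DAPK2, a calmodulin-dependent death-associated kinase, rose in CRPC (0.73), ENZS (1.37) and ENZR (1.06). CASK, a scaffold protein with a calmodulin kinase-like domain, rose in ENZS (0.83). CAMK4 and CAMK1G did not reach 1 TPM in any tumour.

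Of the 14 calmodulin and calcineurin genes tested, 2 rose in CRPC, 7 in ENZS and 3 in ENZR, and 0 fell by limma, against 0, 0 and 1 lower at an unadjusted p under 0.05. RCAN3, a calcineurin regulator, rose by 1.16 in CRPC, 1.80 in ENZS and 1.15 in ENZR, and NFATC1, a transcription factor activated by calcineurin, by 0.73, 1.22 and 0.82. PPP3CB, a catalytic subunit of calcineurin, rose in ENZS (0.91). Without the low tumours 4 rose in CRPC (background 20.2%), 10 in ENZS (57.9%) and 10 in ENZR (53.3%), and 1 fell in ENZR.

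AMPK, the kinase complex downstream of CAMKK2, was represented by 15 genes tested. In ENZS 5 rose and 0 fell (1 lower at an unadjusted p under 0.05), led by STRADA, a partner of the AMPK kinase LKB1 (0.96, adjusted p = 0.00109), PRKAB1, a regulatory subunit (0.83, adjusted p = 0.00192), and PRKAA1, the catalytic alpha 1 subunit, which went from 86.4 to 139 TPM (0.73, adjusted p = 0.0152). In ENZR PRKAA1 (0.73) and STRADA (0.66) rose, and TBC1D1, an AMPK substrate that controls glucose transporter traffic, fell by 0.81 (adjusted p = 0.00127). The counts for POST-CX and CRPC were 0 by limma with all tumours in the fit (1 lower in POST-CX, 1 higher and 1 lower in CRPC at an unadjusted p under 0.05), with 2 higher in POST-CX and 1 higher and 1 lower in CRPC without the low tumours. The levels are of RNA, and kinase activity was not measured.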

How the data were processed

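Gene-level TPM values of 54 tumours were deposited by the authors as 1 table. Per the labels, polyA RNA was sequenced to about 40 M read pairs of 125 bp, and the submitters' processing notes name FastQC 0.11.9, Trim Galore 0.6.5, STAR 2.7.2b and RSEM 1.3.3 with a combined GRCh38 and GRCm38 reference. TPM keeps no read counts, so the counting error behind a value is unknown.

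The 17131 of 60642 symbols that reached 1 TPM in at least 8 tumours were tested with limma 3.58.1 (trend) on log2(TPM + 1), with 5 group means over all tumours and Benjamini-Hochberg adjustment over all genes of a comparison. A gene passed at an adjusted p under 0.05. Fold changes on log2(TPM + 1) understate changes of low genes. On simulated data the fit recovered 76% of genes changed by 1 and 99% of those changed by 2 on the log2 scale in ENZS minus PRE-CX. The simulation drew every gene independently, so it held no shift shared by all genes of a tumour. Recovery with such shifts, as in the 2 tumours of low human total, was not measured. Relations used permutation tests with 100000 resamples, or all pairings below 10 tumours, two-sided.

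All 6 genes are described, and pairwise values are not all printed. From each pathway list up to 3 of the largest rises and falls that passed between a castrated group and PRE-CX, with at least 5 TPM in the higher group, are named. Genes and lists were chosen with earlier results of these data known.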

Additional observations from a re-analysis of the deposited data

Results flagged for a closer look

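In POST-CX mouse 91, the tumour with a human total of 27.9% of 1000000, 3 of the 6 genes stood apart from the 7 other POST-CX tumours. Its CAMKK2 value was 14.18 TPM against 44.7 to 69.9 in the others, its CAMKK1 value was 2.12 TPM against 6.15 to 10.9, and its CAMK2B value was 4.22 TPM against 10.5 to 20.3. The gap to the nearest tumour took 0.715, 0.619 and 0.564 of the range of log2 values in the group, above the critical value of 0.526 for 8 tumours. After rescaling to a human total of 1000000 the same tumour had 50.8, 7.6 and 15.1 TPM. The rule was applied to the 6 genes in the 3 groups of at most 10 tumours, 18 sets of values in all, and chance flags about 1 in 20 such sets. The 3 flags come from 1 tumour and are not independent of each other.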

How the results depend on the processing

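The fall of CAMKK2 in ENZS, in ENZR and over all castrated tumours kept its direction and stayed past the threshold under all 10 alternatives tried for each, with ranges of -1.25 to -0.92, -1.36 to -1.07 and -1.11 to -0.84. The permutation test was 1 of the 10 and was taken at an unadjusted p under 0.05. The CAMK2D difference over all castrated tumours, given here as a description, ranged from 0.88 to 1.38. The calls below changed, and beyond the tumours left out and the weights the cause was not tested.

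CAMKK2 in POST-CX against PRE-CX, not past the threshold as reported, passed at -0.69 on rescaled TPM, -0.90 after centring, -0.70 without both tumours of low human total and -0.60 with tumour weights. In CRPC it passed at -0.66, -0.74, -0.62 and -0.57 under the same settings. The permutation test gave an unadjusted p of 4.11e-05 in POST-CX and 0.000714 in CRPC. The unadjusted limma p was 0.00328 and 0.0374. For CAMKK2, leaving out 1 low tumour, chosen after seeing the data, gave -0.95 to -0.70 in POST-CX and -0.62 in CRPC either way. Over all castrated tumours CAMK2G passed at 0.28 on rescaled TPM, 0.25 without both low tumours and 0.28 with weights, CAMK2B at 0.63, 0.63 and 0.79, and CAMK2N1 at 0.93, 0.86 and 1.03. Of all genes 57.7% passed on rescaled TPM, 53.1% without both low tumours and 11000 of the 17131 with weights. For CAMK2N1 the permutation test gave an unadjusted p = 0.019, beside an unadjusted limma p = 0.0163. Without 1 low tumour CAMK2B gave 0.56 to 0.59 and CAMK2N1 0.82 to 0.83. CAMKK1 changed sign to -0.053 after centring.

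Values near 0 that changed sign were CAMKK1 in POST-CX (0.21 rescaled, 0.034 centred, 0.20 without both low tumours, 0.23 with weights, and -0.014 to 0.20 without 1 low tumour), CAMKK1 in ENZS (0.032 rescaled, 0.0017 with a pseudocount of 0.1 and 0.018 with weights, but -0.25 and past the threshold after centring, adjusted p = 0.0419) and CAMK2G in POST-CX (0.014 rescaled and 0.037 with weights).

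The number of pathway genes past the threshold moved by more than 1.5 times. In POST-CX it went from 2 to 19 on rescaled TPM, 18 centred, 10 without both low tumours, 30 with weights and 4 to 6 without 1 low tumour. In CRPC it went from 6 to 16, 20, 16, 26 and, without 1 low tumour, 6 to 14. In ENZS it was 25 as reported and 38 on rescaled TPM and with weights. In ENZR it went from 17 to 38, 31, 37, 39 and 20 to 30, and over all castrated tumours from 20 to 35, 32, 34 and 38. The permutation test was made for the 6 genes only. Relations on TPM as deposited, which share the human total of a tumour, gave 7 of 60 past the threshold, against 0 on rescaled values and 1 without the low tumours. That 1 was CAMKK2 with the androgen-induced mean in POST-CX, at r = 0.98, or 0.97 on TPM as deposited.

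No paired analysis was possible because no mouse number is shared between groups. The depth behind single values is not known from TPM.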
